A study of Mus musculus with 12 samples.

Results

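The 36 genes described here are induced in neurons by electrical activity and lie outside the AP-1 family of Fos and Jun genes. They were chosen by name, with earlier results of these data known. Each was found by its Ensembl identifier in the table of 43629 genes. All 36 passed the filter on low counts and were among the 15241 genes tested. By role they fall into 9 transcription factors, 5 other transcription regulators, 9 secreted or synaptic effectors, and 13 signalling enzymes and brakes.

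Poly(A) RNA was sequenced from 12 libraries of mouse cortical neuronal cultures, 6 titled Control and 6 titled IFNG, whose treatment is given as IFNy. By the series' design text the IFNG cultures made interferon-gamma continuously from a lentiviral Ifng construct. Transduction was at 7 days in vitro and harvest 10 days later. Control libraries carry the same protocol wording, and what those cultures received is not stated, nor is the promoter that drove Ifng. Whether the libraries of a group came from separate cultures is also not stated. The p-values therefore describe the spread among these libraries, and that spread may be technical.

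When a neuron fires, calcium enters through NMDA receptors and voltage-gated channels and activates calmodulin-dependent and MAP kinases. These kinases act on the factors CREB, SRF and MEF2, which switch on a first wave of genes within minutes, without new protein synthesis. Many first-wave genes encode transcription factors, which with CREB drive a later wave of secreted and synaptic proteins that adjust the strength of synapses. The same genes include phosphatases and other brakes that end the signal. Many of them also respond to growth factors and stress, and are expressed in glia as well as in neurons.

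Library totals ran from 13875435 to 34239380 counts. Ifng was read at 4.98 to 17.9 CPM (counts scaled to a common library total and adjusted for composition) in IFNG libraries and at most 3 counts in any Control library. Markers of cell types moved with the treatment. All 16 tested of 18 astrocyte markers were higher in IFNG, with Slc1a3, Slc1a2 and Glul the most abundant, and the summed level of the 18 ran from 3085 to 3435.6 CPM in Control and from 5319.2 to 8575.5 CPM in IFNG. Of 22 pan-neuronal genes (Map2, Mapt and Syt1 the most abundant) 11 were lower and none higher. Their median was -0.28 on the log2 scale, with sums of 10528.1 to 11515.3 CPM in Control and 8372.1 to 9784.7 CPM in IFNG. Of 14 excitatory markers, led by Gria2, Dlg4 and Camk2a, 6 were lower and 1 higher. Of 14 tested GABAergic markers, among them Gad1 and Reln, 6 were also lower and 1 higher. Of 10 tested oligodendrocyte-lineage markers, led by Olig1, Olig2 and Pdgfra, 2 were lower and 1 higher. Of 9 tested vascular and fibroblast markers, led by Fn1, Dcn and Fbln1, 5 were higher and none lower, with sums of 99.3 to 123.8 CPM in Control and 135.4 to 185.2 CPM in IFNG. Of 16 microglial markers 5 were tested and 2 were higher (P2ry12 and Sall1), and the sum of the 16 was 34.0 to 41.9 CPM in Control and 44.2 to 58.4 CPM in IFNG. Sall1 was the most abundant of them, while Tmem119 had 0 counts over all Control and 3 over all IFNG libraries, Cx3cr1 had 22 and 10, and P2ry12 had 8 and 120. In bulk samples such as these, fewer neurons and less RNA per neuron cannot be told apart. The part of these marker changes in the results that follow was not tested.

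Most of the 36 genes were lower under interferon-gamma. Of the 36 genes, 21 fell, 1 rose and 14 did not pass, in edgeR's quasi-likelihood test at a Benjamini-Hochberg adjusted p of 0.05 over all genes tested. Over all 15241 genes, 9.79% were lower and 14.3% higher, together 24.1%. The median log2 fold change of the 36 was -0.51, against -0.02 over all genes tested. Neuronal genes as such were also lower. Of the 22 pan-neuronal genes 11 were lower and none higher, with a median of -0.28. Of the 14 excitatory markers 6 were lower and 1 higher, with a median of -0.22. Among 26 further activity-induced genes, outside both the 36 and AP-1, 5 were lower and 3 higher, with a median of -0.20. In 5 of the 36 every IFNG library lay below every Control library (Nr4a3, Bdnf, Scg2, Homer1 and Ptgs2), and in Crem every IFNG library lay above. Over all genes tested, 4.09% had all IFNG libraries below and 8.75% all above. Of the 21 falls, 14 held in every one of 21 alternative analyses, and the rise of Crem held in all 21. Scaling on totals from which the higher genes were removed moved the median of all genes from -0.02 to 0.10. On that scale 14 of the 36 fell and 1 rose, and Egr1, Egr3, Nptx2, Dusp6, Rgs2, Plk2 and Plk3 did not pass. With single libraries left out the number that fell ran from 16 (without IFNG 2) to 24 (without IFNG 3).

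**Figure D1:**
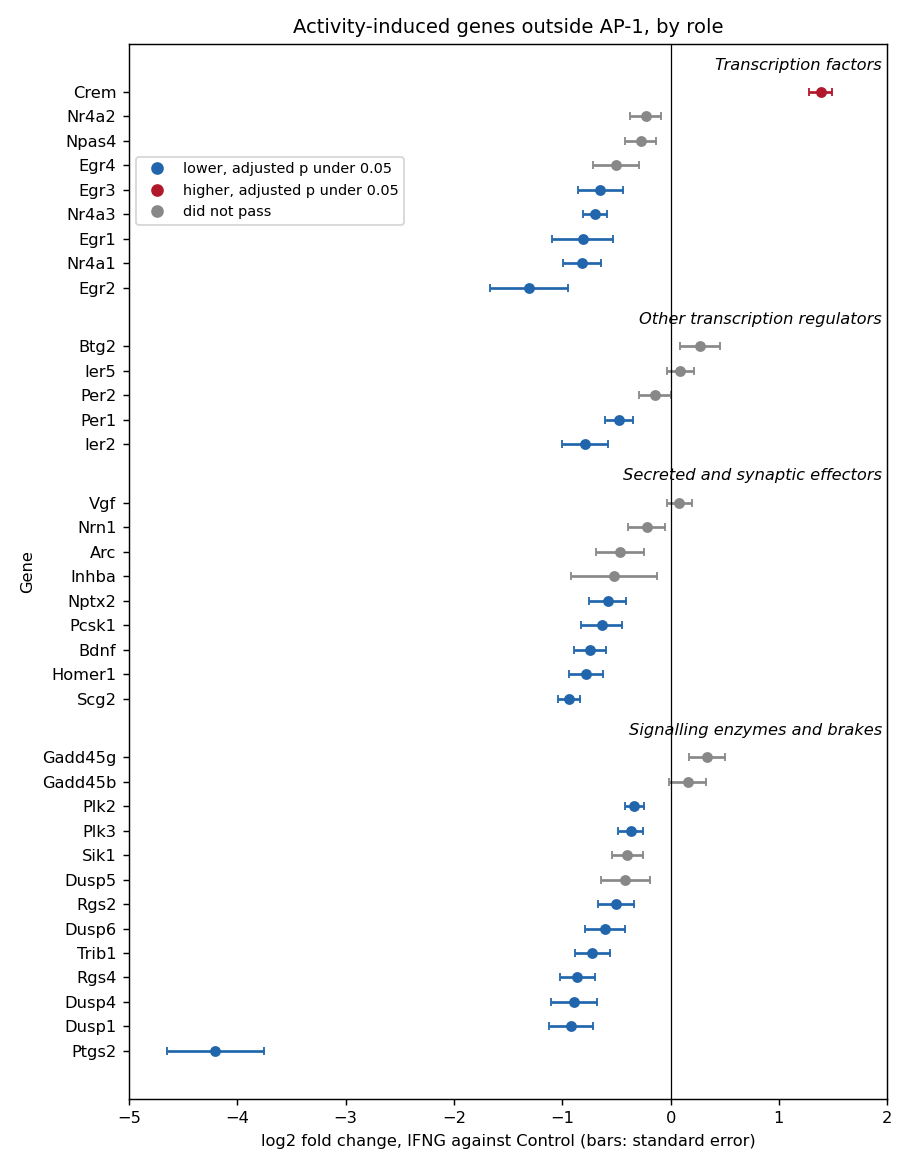
Log2 fold change of IFNG against Control (horizontal axis) for each of the 36 genes, grouped by role, with bars of 1 standard error and colours for the outcome of edgeR's quasi-likelihood test. Most points lie left of 0, Ptgs2 lies far to the left at -4.20, and Crem is the only gene called higher, at 1.39.

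The cyclic AMP response element (CRE) is the site through which CREB acts on many activity-induced genes, and the full CREs found before the starts of these genes are shown for that reason. RefSeq promoter sequences of build GRCm38.p6 were matched for 24 of the 36 genes, in 36 windows of 250 bases before a start. Some windows overlap because a gene has several starts. Egr1, Egr3, Crem, Ier2, Per2, Nptx2, Vgf, Nrn1, Arc, Dusp4, Sik1 and Trib1 had no window and were not searched. The tallies of sites therefore leave out Crem, the only gene of the 36 that rose. The full palindrome TGACGTCA stood before 5 of the 24 genes, 4 of which fell (Dusp1, Pcsk1, Plk2 and Scg2), while Btg2 did not pass, and 15 of the 24 genes with a window fell. Each is given 5′ to 3′ on the gene's strand with 10 bases on either side and the CRE in capitals.
Scg2: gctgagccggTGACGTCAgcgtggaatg
Pcsk1: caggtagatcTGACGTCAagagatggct
Plk2: gcgctcgccgTGACGTCAcgaggccccg
Dusp1: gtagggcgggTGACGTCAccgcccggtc
Btg2: ttcccaataaTGACGTCAgtgagcgatg

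The CREs lie at different distances from the RefSeq start, between 62 bases before it in Plk2 and 166 bases before it in Btg2. The 28-base stretches shown, CRE and flanks together, are at chr1:79440077-79440104 (minus strand) for Scg2, chr13:75089769-75089796 (plus) for Pcsk1, chr13:110394972-110394999 (plus) for Plk2, chr17:26508598-26508625 (minus) for Dusp1 and chr1:134079304-134079331 (minus) for Btg2. The palindrome was present in 5 of the 36 windows (13.9%) and in 1.55% of all 32851 promoter windows of the same length. Its half-site TGACG was searched on both strands and is contained in every full CRE. It was present in 21 of the 36 windows (58.3%), overlapping windows of Egr2 among them, and in 17.8% of all windows. The 36 genes were chosen as activity-induced, and CREB acts on many such genes through the CRE, so these shares say nothing about interferon-gamma. Of the 15 genes with a window that fell, 13 had a half-site, and Ptgs2 and Dusp6 had none in their windows. Of the 9 with a window that did not fall, 5 had one (Btg2, Dusp5, Egr4, Npas4 and Nr4a2). A gene was counted if any of its windows held a half-site. The genes with several windows (Bdnf, Egr2, Homer1 and Per1) all fell, so more sequence was searched per gene among those that fell. Whether half-sites go with the fall was not tested.

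Nr4a1 is shown as an example of the other arrangement, with 4 separate half-sites and no palindrome, a number also found before Nr4a2 and Nr4a3. Its 250 bases before the RefSeq start (chr15:101266596-101266845, plus strand, GRCm38.p6) read as follows, with the half-sites in capitals.
Nr4a1: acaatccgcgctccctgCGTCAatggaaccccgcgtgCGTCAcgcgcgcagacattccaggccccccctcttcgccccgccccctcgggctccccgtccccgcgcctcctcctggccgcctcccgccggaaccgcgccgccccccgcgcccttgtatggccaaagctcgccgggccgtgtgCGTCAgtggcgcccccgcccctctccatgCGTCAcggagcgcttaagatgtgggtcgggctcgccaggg

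All 4 half-sites are on the minus strand and so read CGTCA here, and they begin 233, 213, 69 and 40 bases before the RefSeq start. That start lies 12577 bases inside the gene as GENCODE M21 bounds it, and the RefSeq start of Dusp1 likewise lies 53656 bases inside. The CArG box, the site of SRF, was found in 5 of the 36 windows (13.9%), of which 4 are of Egr2, 3 of these overlapping, and 1 is of Dusp5, and in 1.47% of all windows. The EGR site GCGTGGGCG and the NR4A site AAAGGTCA were in none of the 36 windows, against 0.536% and 1.34% of all windows. These are matches of letters within the windows and were not measured as bound sites.

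The transcription factors fell in most cases, and the exception was Crem. Of the 9, 5 fell (Egr1, Egr2, Egr3, Nr4a1 and Nr4a3), Crem rose, and Egr4, Npas4 and Nr4a2 did not pass. Their median log2 fold change was -0.65. The number that fell was 3 in DESeq2, on totals without the higher genes, and without Control 2, IFNG 4 or IFNG 6.

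Nr4a3 (ENSMUSG00000028341, GRCm38 chromosome 4, 48045153 to 48086447), an orphan nuclear receptor, was the most abundant of the 9 per base of exon, at 25.7 RPKM (CPM per kilobase of annotated exon) in Control. Its Control libraries ran from 127 to 187 CPM with a median of 155, and its IFNG libraries from 83.2 to 111 CPM with a median of 92.0. Every IFNG library was below every Control library, and the log2 fold change was -0.69 ± 0.11 (SE; adjusted p = 7.79e-05). Nr4a1, its close relative, ran from 29.6 to 69.0 CPM in Control (median 44.0) and from 17.5 to 33.2 CPM in IFNG (median 26.8). The groups overlapped through Control 5, the lowest Control library, and Nr4a1 fell by 0.82 on the log2 scale (SE 0.18; adjusted p = 0.00169). Nr4a2, a factor also needed by dopaminergic neurons, ran from 17.1 to 28.3 CPM in Control (median 24.4) and from 16.1 to 23.5 CPM in IFNG (median 19.6). Nr4a2 stood at -0.23 ± 0.14 (adjusted p = 0.266).

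The EGR genes encode zinc-finger factors of the first wave. Egr1 ran from 51.7 to 174 CPM in Control (median 101) and from 38.2 to 110 CPM in IFNG (median 60.1). Control 1 and Control 2 were the highest, and IFNG 3 lay above 3 of the 6 Control libraries. Egr1 fell by 0.81 on the log2 scale (SE 0.28; adjusted p = 0.0406). This call ended without any one of Control 1, 2 or 3 or IFNG 1, 2, 4, 5 or 6 (adjusted p = 0.0527 to 0.115), in DESeq2 (0.104) and in limma-voom (0.0539). Egr2, which works in the same wave at a lower level, ran from 4.13 to 19.2 CPM in Control (median 11.5) and from 1.67 to 8.13 CPM in IFNG (median 4.68). It fell by 1.30 on the log2 scale (SE 0.36; adjusted p = 0.0114), the largest fall among the 9 factors, with groups that overlapped through Control 5 and Control 6.

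Egr3, a target of the first EGR factors that feeds back on them, ran from 55.7 to 102 CPM in Control (median 75.3) and from 22.9 to 80.2 CPM in IFNG (median 49.1). IFNG 3 was again the highest of its group and IFNG 5 the lowest. The log2 fold change was -0.65 ± 0.21 (adjusted p = 0.0266), and the call was lost when Control 2 or 6 or IFNG 4 or 6 was left out (adjusted p = 0.0517 to 0.0731) and in DESeq2 (0.0538). Egr4, the fourth member, ran from 14.5 to 43.6 CPM in Control (median 26.5) and from 14.95 to 27.7 CPM in IFNG (median 21.0), at -0.50 ± 0.21 (adjusted p = 0.0903). Without Control 5, its lowest Control library, or without IFNG 3, its highest IFNG library, Egr4 passed (adjusted p = 0.0156 and 0.0443).

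Npas4, a factor specific to neurons that calcium entry induces, did not pass. It ran from 21.2 to 26.7 CPM in Control (median 24.8) and from 14.5 to 26.0 CPM in IFNG (median 21.4), where IFNG 5 and IFNG 6 were the lowest. The log2 fold change was -0.28 ± 0.14 (adjusted p = 0.183).

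Crem encodes the cyclic AMP response element modulator, and one of its promoters makes ICER, a short repressor of CREB targets that activity and cyclic AMP induce. Crem ran from 10.2 to 13.2 CPM in Control (median 11.8) and from 28.6 to 32.5 CPM in IFNG (median 30.6). The groups were far apart with little spread in either, and the log2 fold change was 1.39 ± 0.10 (adjusted p = 2.45e-09). Counts were summed over the transcripts of a gene, so ICER cannot be told apart from the longer CREM forms. Gm6225, annotated on the opposite strand, shares 472 exon bases with Crem and held 239 counts over the 12 libraries, against 5047 for Crem.

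**Figure D2:**
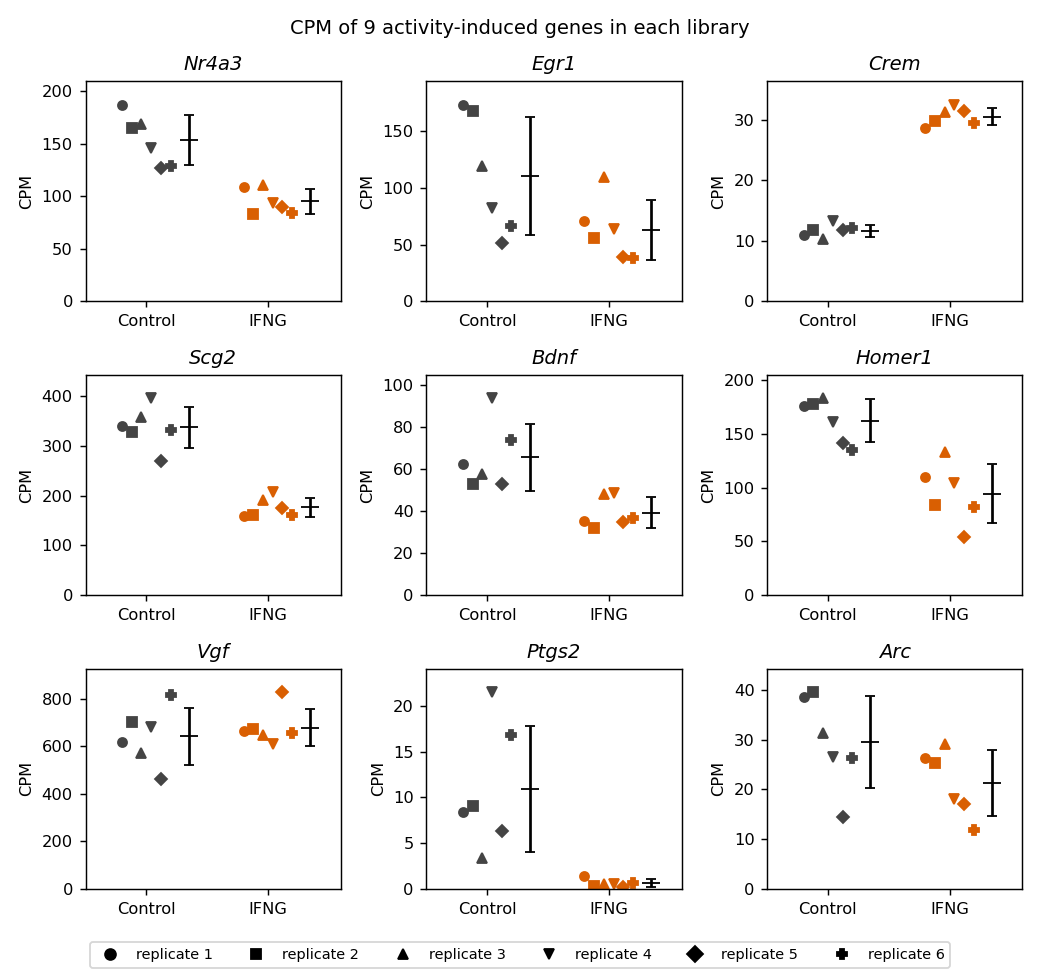
CPM (vertical axes, from 0) of 9 of the genes in the 6 Control and 6 IFNG libraries, with a symbol for each replicate number and the mean with 1 SD beside each group. Nr4a3, Scg2, Bdnf, Homer1 and Ptgs2 show IFNG libraries below all Control libraries, Crem shows them above, and Egr1, Vgf and Arc overlap.

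Among the 5 other transcription regulators 2 fell and 3 did not pass, with a median log2 fold change of -0.14. That median was -0.08 without Control 1, -0.07 without Control 2, -0.22 without Control 5 and -0.05 without IFNG 5. Ier2, a first-wave nuclear protein, ran from 8.25 to 14.9 CPM in Control (median 11.02) and from 3.67 to 10.3 CPM in IFNG (median 6.15). It fell by 0.79 on the log2 scale (SE 0.21; adjusted p = 0.00958), and its groups overlapped through IFNG 5. Per1, a repressor of the circadian clock that light and activity induce, ran from 60.6 to 106 CPM in Control (median 81.0) and from 47.5 to 69.0 CPM in IFNG (median 59.0). Per1 fell by 0.48 on the log2 scale (SE 0.13; adjusted p = 0.00957). Its paralog Per2 stood at -0.14 ± 0.15 (adjusted p = 0.528), with 36.1 to 62.6 CPM in Control and 32.3 to 56.7 CPM in IFNG. Btg2, which restrains proliferation, stood at 0.27 ± 0.19 (adjusted p = 0.327), and Ier5 at 0.09 ± 0.13 (adjusted p = 0.663).

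The partners of the clock proteins were read beside Per1 and Per2. Of 10 listed clock genes 3 rose and 1 fell, and their median was 0.11 on the log2 scale. Npas2, a paralog of the activator CLOCK, fell from 32.8 ± 2.81 to 21.9 ± 3.03 CPM (SD, n = 6 each; adjusted p = 0.000579). Dbp, an output gene of the clock, rose from 7.47 ± 2.43 to 16.6 ± 6.55 CPM (adjusted p = 0.00223), and Nr1d1, which represses clock activators, rose from 34.1 ± 6.14 to 45.8 ± 9.49 CPM (adjusted p = 0.0377). Per3, a paralog of Per1 and Per2, was the remaining gene that rose, from 17.9 ± 1.34 to 26.4 ± 9.59 CPM (adjusted p = 0.0395). Its groups overlapped, and it was named after its value was seen. Tef, an output factor related to Dbp, stood at 0.15 ± 0.086 (adjusted p = 0.228).

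Among the 9 secreted and synaptic effectors, 5 fell (Bdnf, Nptx2, Scg2, Pcsk1 and Homer1), none rose and 4 did not pass. Their median log2 fold change was -0.58.

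Scg2 (ENSMUSG00000050711, GRCm38 chromosome 1, 79434669 to 79440120) encodes secretogranin II, a protein of dense-core vesicles that is cleaved into peptides such as secretoneurin. It was the second most abundant of the 36 genes per base of exon, at 134 RPKM in Control, and stood at 69.9 RPKM in IFNG. Its Control libraries ran from 269 to 395 CPM (median 336) and its IFNG libraries from 159 to 208 CPM (median 168), with no overlap. Scg2 fell by 0.94 on the log2 scale (SE 0.10; adjusted p = 4.69e-07), the smallest p of the effectors. Vgf, another precursor of secreted peptides, behaved differently. It was the most abundant of the 36 per base of exon, at 216 RPKM in Control, with 228 RPKM in IFNG. Vgf ran from 463 to 817 CPM in Control (median 649) and from 608 to 828 CPM in IFNG (median 659), at 0.08 ± 0.12 on the log2 scale (adjusted p = 0.669).

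Bdnf (ENSMUSG00000048482, GRCm38 chromosome 2, 109674700 to 109727007) encodes brain-derived neurotrophic factor, which strengthens synapses through its receptor TrkB. It ran from 52.9 to 93.7 CPM in Control (median 59.9) and from 31.8 to 48.8 CPM in IFNG (median 35.9). The groups did not overlap, and the log2 fold change was -0.74 ± 0.15 (adjusted p = 0.000751). RefSeq gives Bdnf 7 starts in the promoter table, and gene counts do not tell the activity-driven starts from the others. Pcsk1, the protease that processes neuropeptide precursors in secretory granules, ran from 22.7 to 32.6 CPM in Control (median 29.3) and from 7.78 to 22.9 CPM in IFNG (median 19.6). IFNG 5 was its lowest library, and Pcsk1 fell by 0.64 on the log2 scale (SE 0.19; adjusted p = 0.0192).

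Nptx2 encodes a secreted pentraxin that clusters AMPA receptors at synapses on interneurons. It ran from 32.6 to 64.2 CPM in Control (median 39.2) and from 24.3 to 40.6 CPM in IFNG (median 29.0). Nptx2 fell by 0.58 on the log2 scale (SE 0.17; adjusted p = 0.0186), and the call ended without Control 4, Control 6 or IFNG 2 (adjusted p = 0.0537 to 0.0686). Inhba, the subunit of activin A, was the least abundant of the 36 per base of exon, at 0.427 RPKM in Control. It ran from 1.36 to 4.57 CPM in Control and from 1.01 to 4.42 CPM in IFNG, and stood at -0.52 ± 0.40 (adjusted p = 0.378). Nrn1, a membrane-anchored protein that promotes neurite growth, ran from 21.0 to 34.6 CPM in Control and from 16.2 to 40.4 CPM in IFNG. It stood at -0.22 ± 0.17 (adjusted p = 0.391), and it passed only without IFNG 3, its highest library, at -0.41 (adjusted p = 0.0403). Its exons share 501 bases with Fars2 on the opposite strand, and without a stated strand setting the reads of that stretch are uncertain.

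Homer1 encodes a scaffold that ties metabotropic glutamate receptors to the postsynaptic density, and activity induces its short form Homer1a, which uncouples them. It ran from 135 to 183 CPM in Control (median 169) and from 53.9 to 133 CPM in IFNG (median 94.2). IFNG 3, the highest of its group, lay just below Control 6, the lowest of the Control libraries. Homer1 fell by 0.78 on the log2 scale (SE 0.16; adjusted p = 0.00088), with short and long forms counted together. Arc, whose protein removes AMPA receptors from synapses, ran from 14.5 to 39.5 CPM in Control (median 28.9) and from 11.8 to 29.0 CPM in IFNG (median 21.6). Arc stood at -0.47 ± 0.22 on the log2 scale (adjusted p = 0.136) and passed without Control 5, its lowest Control library (adjusted p = 0.033), and with the replicate number as a block (adjusted p = 0.0428).

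Receptors, paralogs and processing partners of these effectors moved in both directions. Of 24 such genes 6 fell and 3 rose, and their median was -0.20 on the log2 scale. Ntrk2, which encodes TrkB and is abundant in astrocytes as well as neurons, rose from 968 ± 110 to 1459 ± 300 CPM (SD, n = 6 each; adjusted p = 0.00116), while its ligand gene Bdnf fell. Nptx1, the paralog of Nptx2, rose from 93.3 ± 11.3 to 132 ± 11.5 CPM (adjusted p = 0.000486), with no overlap between groups. Pcsk2, the partner protease of Pcsk1, fell from 235 ± 22.2 to 163 ± 12.1 CPM (adjusted p = 9.5e-05), also with no overlap. Cpe, the carboxypeptidase that trims the peptides they release, stood at 0.01 ± 0.11 (adjusted p = 0.972).

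The signalling enzymes and brakes also fell in most cases. Of the 13, 9 fell (Dusp1, Dusp4, Dusp6, Rgs2, Rgs4, Plk2, Plk3, Trib1 and Ptgs2), none rose and 4 did not pass. Over all genes tested 9.79% were lower. The median log2 fold change of the 13 was -0.51, against -0.65 for the transcription factors and -0.58 for the effectors. With 1 library left out, 6 to 10 of the 13 fell. On totals without the genes that rose, Dusp6, Rgs2, Plk2 and Plk3 did not pass.

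Ptgs2 showed the largest change of the 36. The gene (ENSMUSG00000032487, GRCm38 chromosome 1, 150100031 to 150108227) encodes cyclooxygenase-2, the inducible enzyme of prostaglandin synthesis, which excitatory neurons make in response to activity and immune cells in response to inflammation. Its Control libraries ran from 3.41 to 21.5 CPM (median 8.71) and its IFNG libraries from 0.258 to 1.43 CPM (median 0.501). The groups did not overlap, with 1213 counts over the Control libraries and 69 over the IFNG libraries. The log2 fold change was -4.20 ± 0.45 (adjusted p = 4.95e-07), and it lay between -4.59 and -3.72 over the 21 alternatives. Control 4 and Control 6 were the highest and Control 3 the lowest of the Control libraries.

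The DUSP genes encode phosphatases that switch off MAP kinases. Dusp1 ran from 6.56 to 15.1 CPM in Control (median 11.97) and from 3.40 to 7.53 CPM in IFNG (median 6.33), and fell by 0.92 on the log2 scale (SE 0.21; adjusted p = 0.00253). Control 5 alone among the Control libraries lay within the IFNG range. Dusp4 ran from 18.6 to 43.6 CPM in Control (median 36.3) and from 10.9 to 27.5 CPM in IFNG (median 18.6), and fell by 0.89 (SE 0.21; adjusted p = 0.00386). Dusp6, selective for ERK, ran from 32.0 to 52.4 CPM in Control (median 43.3) and from 18.4 to 46.1 CPM in IFNG (median 27.6), where IFNG 3 stood above the rest. It fell by 0.61 on the log2 scale (SE 0.19; adjusted p = 0.0224), a call lost when any of Control 2, 4 or 6 or IFNG 2 or 6 was left out (adjusted p = 0.0512 to 0.0631). Dusp5, a nuclear ERK phosphatase, stood at -0.42 ± 0.23 (adjusted p = 0.209).

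Rgs4 and Rgs2 encode proteins that shorten signalling by G proteins. Rgs4 was the third most abundant of the 36 per base of exon, at 102.5 RPKM in Control, with 56.5 RPKM in IFNG. It ran from 268 to 371 CPM in Control (median 316) and from 116 to 274 CPM in IFNG (median 166), and fell by 0.86 on the log2 scale (SE 0.16; adjusted p = 0.000422). The groups met only through IFNG 3 and Control 5. Rgs2 ran from 55.8 to 89.4 CPM in Control (median 65.9) and from 34.9 to 79.2 CPM in IFNG (median 43.1), and fell by 0.51 (SE 0.17; adjusted p = 0.0311). That call was lost when any of Control 2 or 4 or IFNG 1, 2, 5 or 6 was left out (adjusted p = 0.0528 to 0.0947).

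Plk2, a kinase that weakens synapses after prolonged activity, showed a small shift with little spread. It ran from 150 to 181 CPM in Control (median 169) and from 117 to 155 CPM in IFNG (median 128), and fell by 0.34 on the log2 scale (SE 0.088; adjusted p = 0.00752). On library totals without the genes that rose it did not pass, at -0.23 (adjusted p = 0.0669). Plk3, a related stress-responsive kinase, ran from 21.8 to 30.3 CPM in Control (median 25.3) and from 16.8 to 22.8 CPM in IFNG (median 19.9), and fell by 0.37 (SE 0.12; adjusted p = 0.026). The Plk3 call was lost when any of Control 1, 3 or 5 or IFNG 2 or 4 was left out (adjusted p = 0.0501 to 0.0757), and without a filter on low counts (0.0781). Trib1, a pseudokinase that directs proteins to degradation, ran from 14.1 to 21.3 CPM in Control (median 19.9) and from 8.64 to 16.3 CPM in IFNG (median 11.1). Trib1 fell by 0.72 on the log2 scale (SE 0.16; adjusted p = 0.00255).

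Sik1, a kinase that restrains CREB coactivators, stood just outside the threshold at -0.40 ± 0.14 (adjusted p = 0.0517). It passed without Control 4 or IFNG 3 (adjusted p = 0.0143 and 0.0332), in DESeq2 (0.0426) and on totals with no composition factor (0.0345). Gadd45b and Gadd45g, which take part in the DNA demethylation and stress responses that activity induces, stood at 0.16 ± 0.17 and 0.34 ± 0.17 (adjusted p = 0.564 and 0.151). Gadd45g reached 44.6 CPM in IFNG 5, while the rest of the group ran from 21.7 to 29.2 CPM.

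Other members of these gene families were read for comparison. Of 31 tested paralogs 11 fell and 4 rose, and their median was -0.23. Rgs6 fell from 69.3 ± 10.2 to 38.2 ± 2.98 CPM (SD, n = 6 each; adjusted p = 4e-06), while Rgs9 rose from 12.6 ± 1.77 to 25.6 ± 2.98 CPM (adjusted p = 3e-06). Dusp16, a phosphatase for JNK and p38, rose from 9.51 ± 1.69 to 19.2 ± 3.49 CPM (adjusted p = 3.4e-05). Sik3, related to Sik1, stood at 0.01 ± 0.10 (adjusted p = 0.95).

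**Figure D3:**
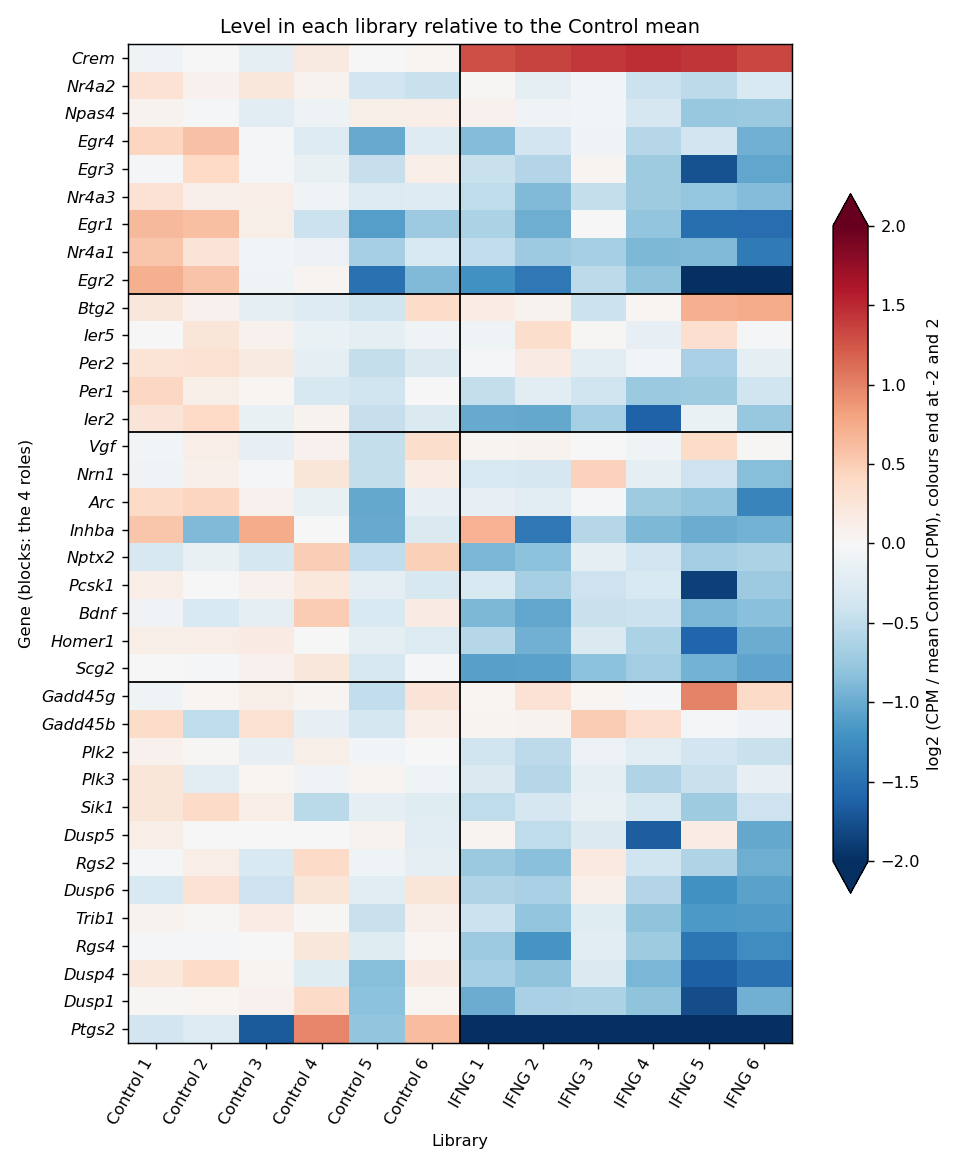
Level of each of the 36 genes (rows, in blocks by role) in each library (columns), as log2 of CPM over the mean Control CPM, with colours that end at -2 and 2. Blue covers most of the IFNG side, Crem is the deepest red row there, paler red marks libraries of Gadd45g, Gadd45b, Btg2 and some others, and Control 5 is bluer than the other Control libraries.

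The contrast between transcription factors and effectors overlapped between the groups, and its direction turned on Crem. The mean log2 CPM over the 9 transcription factors ran from 4.64 to 5.54 in Control (median 5.17) and from 4.31 to 5.18 in IFNG (median 4.80). Over the 9 effectors it ran from 5.37 to 6.04 in Control (median 5.89) and from 4.996 to 5.61 in IFNG (median 5.27). The difference of the first mean from the second was -0.65 ± 0.26 in Control and -0.54 ± 0.14 in IFNG (SD, n = 6 each), and the ranges overlapped, at -0.93 to -0.29 and -0.74 to -0.35. Without Crem, left out after its value was seen, the difference was -0.45 ± 0.30 in Control and -0.56 ± 0.17 in IFNG, so that its change went from 0.12 to -0.11, with ranges that again overlapped. The 13 signalling genes had means of 4.58 to 5.03 in Control and 3.91 to 4.50 in IFNG, a change of -0.74 in the group mean, against -0.54 for the effectors and -0.42 for the factors. Without Ptgs2, also left out after its value was seen, the signalling ranges overlapped (4.74 to 5.12 and 4.33 to 4.94) and the change was -0.48, smaller than that of the effectors and than the -0.65 of the factors without Crem. The 5 other regulators had means of 4.30 to 4.92 in Control and 4.18 to 4.59 in IFNG.

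**Figure D4:**
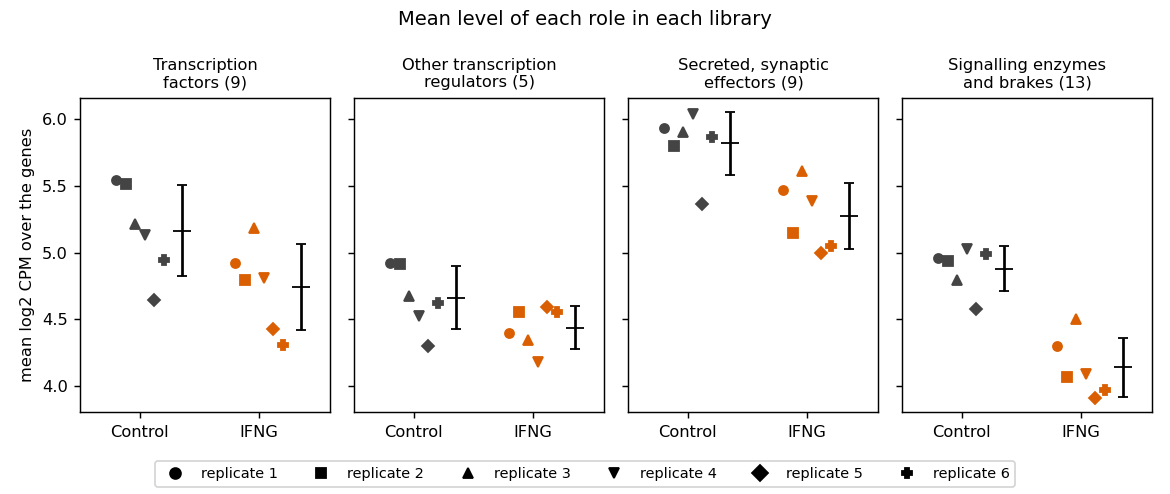
Mean log2 CPM (vertical axis) over the genes of each role in each library, with a symbol for each replicate number and the mean with 1 SD beside each group. The IFNG means lie below the Control means in all 4 roles, and the signalling enzymes and brakes, Ptgs2 included, are the role whose ranges do not overlap, at 4.58 to 5.03 in Control and 3.91 to 4.50 in IFNG.

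Libraries of a group differed in the level of many of these genes at once. Control 5 was the lowest Control library in 22 of the 36 genes and the highest in 0. IFNG 3 was the highest IFNG library in 18 of the 36 and the lowest in 1, and IFNG 5 the lowest in 13. IFNG 3 also held the least Ifng (4.98 CPM) and had the lowest mean log2 CPM of the astrocyte markers in its group, at 7.54, while the rest ran from 7.71 to 8.12. Its pan-neuronal mean, at 8.26, was the highest of the IFNG libraries. Control 5, by contrast, had the highest pan-neuronal mean of all libraries, at 8.424, although it was the lowest Control library in 22 of the 36 genes. The pan-neuronal mean of IFNG 5, at 8.028, was not the lowest of its group, as that of IFNG 2 was lower. IFNG 5 held the most Ifng (17.9 CPM). The part of these differences in the results was not tested.

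The machinery that couples activity to transcription was lower in part. Of 32 genes of calcium entry, kinases, phosphatases and the factors they act on, 12 fell and 1 rose, and their median was -0.24. Pan-neuronal genes moved by a similar amount, with 11 of 22 lower, none higher and a median of -0.28. Over all genes tested 9.79% were lower. Camkk2, a kinase that activates other calmodulin-dependent kinases, fell from 227.5 ± 21.2 to 145 ± 17.7 CPM (SD, n = 6 each; adjusted p = 2.9e-05), with no overlap. Mapk3, which encodes ERK1, fell from 165 ± 12.5 to 125 ± 11.6 CPM (adjusted p = 0.00169), also with no overlap. Mef2c, a factor that activity switches on, fell by 0.68 on the log2 scale (SE 0.16; adjusted p = 0.00387). Camk2a, the most abundant gene of this list that did not pass, stood at -0.17 ± 0.081 (adjusted p = 0.138).

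Further activity-induced genes, outside both the 36 and AP-1, were mixed. Of 26, 5 fell and 3 rose, and their median was -0.20. Syt4, a synaptotagmin of dense-core vesicles, fell by 0.51 on the log2 scale (SE 0.12; adjusted p = 0.0033). Tiparp rose from 34.9 ± 5.38 to 56.2 ± 7.41 CPM (SD, n = 6 each; adjusted p = 0.00017), and Zfp36, which destabilises inflammatory mRNAs, rose from 0.382 ± 0.433 to 3.33 ± 0.829 CPM (adjusted p = 0.000276). Cdkn1a, the cell cycle inhibitor p21, stood at -0.33 ± 0.13 (adjusted p = 0.0632). Among the 7 AP-1 genes set apart from the 36, 3 fell and 1 rose, and their median was -0.32. Fosl2 fell from 189 ± 27.9 to 143.5 ± 27.5 CPM (SD, n = 6 each; adjusted p = 0.026) and was named after its value was seen. Fosb and Fos fell by 1.99 and 0.98 on the log2 scale and Jun rose by 0.81 (adjusted p = 2.7e-05, 0.00832 and 4e-06), and Jund stood at -0.22 ± 0.12 (adjusted p = 0.194).

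Heat shock genes, which rise with handling stress, were read because first-wave genes also respond to it. Of 6 tested 1 fell and none rose. Hspa1b, the gene that fell, went from 5.89 ± 1.35 to 3.92 ± 0.779 CPM (SD, n = 6 each; adjusted p = 0.0482), and Hspa8, the most abundant that did not pass, stood at 0.16 ± 0.089 (adjusted p = 0.216). Dnajb1 and Hsp90aa1, the next by p, stood at -0.26 ± 0.11 (adjusted p = 0.0852) and -0.21 ± 0.10 (adjusted p = 0.129). Hspa1b and its near-identical copy Hspa1a share reads, so their split is uncertain. The summed level of the 7 listed genes was 3309.9 to 4352.6 CPM in Control and 3492.9 to 4236.2 CPM in IFNG. Any part of handling stress in the levels of the first-wave genes was not tested.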

How the data were processed

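Per the labels, libraries were poly(A)-enriched. The authors deposited raw counts per gene. The submitters' processing notes name STAR 2.4, DESeq2, GRCm39 and mm10, with no role. For the read counter, strand setting and annotation: not given in the sources used here. Symbols, positions and exon lengths came from GENCODE M21 (GRCm38), which matched 42462 identifiers and may differ from the annotation used to count.

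IFNG was compared with Control, 6 libraries each, in edgeR 4.0.16 (R 4.3.3; TMM, filterByExpr, quasi-likelihood F-test, two-sided, Benjamini-Hochberg at 0.05, no block). The procedure was also run on counts simulated from the Control means with known folds for some genes. That simulation held no shift in cell types, so it cannot show how far calls depend on the scaling. SE is the absolute log2 fold change over the square root of F. Means of log2 CPM use a prior count of 2. No pair of libraries within a group agreed within sampling noise (chi-square of at least 7.04 per gene). Depth was 13875435 to 34239380 counts. Alternatives were 2 scalings by totals, DESeq2 size factors, 2 filters, a replicate block, libraries left out, DESeq2 1.42.0 and limma-voom (limma 3.58.1).

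Members and lists were chosen with earlier results of these data known. All 36 members are reported. Of each other list, the text names the 3 with the lowest p plus the gene of highest level that did not pass, and of each marker list the 3 of highest level, except that some items are not reported here. The marker lists were for pan-neuronal, excitatory, GABAergic, astrocyte, microglial, oligodendrocyte, and vascular and fibroblast cells.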

Additional observations from a re-analysis of the deposited data

Results flagged for a closer look

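In each group of 6 libraries, a library was singled out where its gap to the nearest other library, divided by the range of the group, exceeded Dixon's critical value at the 95% level. Of 72 sets (36 genes in 2 groups) 6 gave such a library, and chance gives about 1 in 20. Vgf stood at 828 CPM in IFNG 5, against at most 673 CPM in the other IFNG libraries. Gadd45g stood at 44.6 CPM in IFNG 5, with the next library at 29.2 CPM. Inhba stood at 4.42 CPM in IFNG 1, with the next at 1.84 CPM. Ptgs2 stood at 1.43 CPM in IFNG 1, with the next at 0.686 CPM, still below the lowest Control library. Dusp6 stood at 46.1 CPM in IFNG 3, with the next at 28.5 CPM. Trib1 stood at 14.1 CPM in Control 5, with the next at 19.4 CPM.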

How the results depend on the processing

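No member changed sign in any of 21 alternatives. Over the 36 members and these alternatives, 700 values kept direction and side of the threshold, 46 lost the threshold and 10 gained it. Library totals without the genes that rose, which push all genes up by construction, left 750 genes lower (1492 in the edgeR analysis with TMM), 3 transcription factors lower and 5 signalling genes lower; 2961 genes were then higher, 79.8% of calls against 59.4%, and on totals without a composition factor 51.4%. In DESeq2, 3 transcription factors fell; the cause was not tested. With 1 library left out, 3 to 6 transcription factors fell (3 without Control 2, IFNG 4 or IFNG 6), the median log2 fold change of the signalling genes ran from -0.70 (without IFNG 3) to -0.42, and 16 to 24 members fell. Without Control 4 and IFNG 5 together 18 members fell. In means over a role, leaving out its most extreme gene, a choice made after seeing the data, changed the signalling difference (IFNG minus Control, log2 CPM) from -0.74 to -0.48 without Ptgs2 and the factor-minus-effector difference from 0.12 to -0.11 without Crem.

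The labels number replicates 1 to 6 in both groups. Deviations of same-numbered libraries correlated at -0.001 to 0.124. Such weak correlations do not show a pairing and cannot exclude one, and the labels state none. The number 6 was the only one whose libraries correlated best with each other. Across numbers, Control 4 and IFNG 5 were each other's best match, as were Control 3 and IFNG 2. With the replicate block 22 members fell, Arc being added, and 2114 genes were higher and 1563 lower. Depth limits the genes near 1 CPM, such as Inhba with 288 Control counts.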
